A study of Mus musculus with 21 samples.

Results

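The claudins of N202 mouse mammary tumour cells were followed through adaptation of the cells to brain, bone marrow, lung and breast tissue. The family was taken as the 10 genes Cldn1, Cldn2, Cldn3, Cldn4, Cldn6, Cldn7, Cldn8, Cldn9, Cldn12 and Cldn23, out of 19937 genes that the array annotation names, and each was read from the probe set with the highest mean over the 21 arrays; each of the 10 has 1 such probe set. Of the 10 members, 7 passed the filter on dim probe sets and 3, Cldn6, Cldn8 and Cldn23, did not. A further 13 claudin genes have a probe set, and 0 of them passed; their group means reached at most 6.07 on the log2 scale, under the filter's limit of 7.33.

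N202 cells were derived from mammary carcinomas of FVB mice in which the MMTV promoter, active in mammary epithelium, drives a rat HER-2/neu transgene. All 16 groups of arrays, the parental cells included, carried a stably integrated H2B-GFP construct, and every adapted group descends from this 1 line. The parental cells (P0, 2 arrays) were grown only in culture. For each passage, spheroids of tumour cells lay for 21 days on minced, revascularised tissue of C57BL/6 donors in the dorsal skinfold chamber of a female nude mouse, a host short of T cells. The cells were then regrown in culture under G418, sorted for GFP and expanded again before RNA was made, so the arrays measured cultured cells and not tumours. Passages P1 to P4 on brain had 2 arrays each, P1 to P4 on bone marrow and on lung 1 array each, P1 on breast 1 array, and P1 and P2 of a second, separate brain experiment 1 array each. The second array of a brain passage is labelled a technical replicate and started from a culture of its own. The p-values below therefore measure the spread between cultures, in the pairs of brain P1 to P4 and of the parental cells. They do not measure the spread between adaptation experiments, and the number of arrays limits their precision.

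Claudins are membrane proteins that polymerise into the strands of tight junctions, the belts that seal neighbouring epithelial cells to each other at the apical end of their sides. Sealing members such as Cldn1, Cldn3 and Cldn4 tighten the space between cells, whereas Cldn2 forms pores through which small cations and water pass. Mammary ducts and lobules depend on these junctions to hold milk in the lumen, and a subtype of breast tumours with low levels of several claudins has been named claudin-low. Occludin and the junctional adhesion molecules lie beside claudins in the membrane, and the zonula occludens proteins bind most claudin tails from inside the cell.

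The 250 bases before the start of transcription are printed below for the 4 members that the results turn on: Cldn1 and Cldn2, which moved in opposite directions on brain tissue, and Cldn3 and Cldn4, which lie next to each other on chromosome 5. The sequences are from RefSeq on build GRCm38.p6, where such a window was found for 7 of the 10 members. The windows lie at chr16:26371840-26372089 on the minus strand, chrX:139800558-139800807 on the plus strand, chr5:134985964-134986213 on the plus strand and chr5:134946935-134947184 on the minus strand. Each is written 5′ to 3′ on the strand of its gene, and the capitals mark matches to any of 6 short motifs.
Cldn1: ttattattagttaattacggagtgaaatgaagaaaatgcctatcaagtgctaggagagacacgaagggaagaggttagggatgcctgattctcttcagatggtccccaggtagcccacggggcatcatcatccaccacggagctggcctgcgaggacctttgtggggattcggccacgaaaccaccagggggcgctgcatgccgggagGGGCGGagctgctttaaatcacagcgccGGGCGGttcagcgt
Cldn2: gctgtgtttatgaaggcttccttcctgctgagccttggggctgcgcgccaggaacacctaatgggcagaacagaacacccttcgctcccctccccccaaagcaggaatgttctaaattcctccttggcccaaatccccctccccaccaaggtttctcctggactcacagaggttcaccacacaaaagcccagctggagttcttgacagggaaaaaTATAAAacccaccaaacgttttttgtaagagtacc
Cldn3: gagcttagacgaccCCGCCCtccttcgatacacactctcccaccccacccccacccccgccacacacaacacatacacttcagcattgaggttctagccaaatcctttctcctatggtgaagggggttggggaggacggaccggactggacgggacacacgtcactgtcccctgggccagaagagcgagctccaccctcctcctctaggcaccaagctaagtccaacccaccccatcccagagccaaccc
Cldn4: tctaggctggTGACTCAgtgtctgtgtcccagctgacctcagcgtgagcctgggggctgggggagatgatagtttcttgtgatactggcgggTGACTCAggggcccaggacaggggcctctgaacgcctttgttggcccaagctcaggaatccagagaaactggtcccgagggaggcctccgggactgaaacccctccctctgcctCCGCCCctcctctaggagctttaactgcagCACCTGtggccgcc
The motifs were searched on both strands: CAGGTG, an E-box bound by Snail and Zeb; AACCNGTT, a grainyhead site; GGGCGG, the GC box; TATAAA, the TATA box; CCGGAA, an Ets core; and TGANTCA, an AP-1 site. No 2 of the matches printed overlap. Cldn2 has a TATA box 35 to 30 bases before its start, a match that 12.4% of all 32851 windows of this length hold anywhere, and it has no match to the other 5 motifs. The window of Cldn1 holds 2 GC boxes, at 42 to 37 and 14 to 9 bases before the start, and those of Cldn3 and Cldn4 hold 1 each; 32.7% of all windows hold one. Cldn4 is the only one of the 4 windows with an E-box, at 14 to 9 bases before the start, and it has 2 AP-1 sites. At least 1 E-box is held by 17.2% of all windows, and at least 1 AP-1 site by 6.75%. A grainyhead site, held by 1.79% of all windows, and an Ets core, held by 12.0%, were found in none of the 4. Cldn1 has 14 CpG dinucleotides in its window and Cldn2 has 4, where the median of all windows is 6. These matches describe letters, not binding.

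Values are log2 levels as the authors' RMA procedure gave them, and levels of different genes were not ranked against each other, since probe sets differ in brightness. A change was called at a Benjamini-Hochberg adjusted p under 0.05 from limma, over all probe sets that were kept; 7300 genes were among them, and the share of these called in each comparison is given beside the count of claudins. The comparisons with P0 share the same 2 parental arrays. For groups with a single array the spread was taken from the groups with 2. On 5 arrays, the second arrays of brain P1 to P4 and the lung P1 array, the dimmest probe sets were brighter than elsewhere. Their 5th percentile was 2.49 to 3.04 against 2.01 to 2.40 on the 16 others, and results are given without these 5 where the call changed. Without them only the parental cells keep 2 arrays, so the spread rests on that pair alone. A call lost in this way cannot be told from a loss of precision. Of the mammary epithelial markers, 8 of 11 passed the filter, and the mean level over all 11 lay between 9.20 and 9.54 in every group. None of 8 fibroblast, 7 endothelial or 6 lung epithelial markers passed, and of the brain cell markers with a probe set 1 of 8 did, the myelin protein gene Mbp. Among 8 blood cell markers only Cd68, a lysosomal protein of macrophages, passed.

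Cldn2, the pore-forming member (probe set 10602033, chromosome X), had the widest range of the family and fell on brain tissue. Its level was 8.02 and 8.44 in the 2 parental arrays. At brain P1 it was 4.29 and 3.64, and at brain P2 it was 4.03 and 3.17. These 4 arrays lay below every other array of the series, and below the median of all probe sets, which was 4.98 to 5.15 on the arrays. At P3 the level was 6.68 and 6.99, and at P4 it was 5.83 and 6.18, between the early passages and the parental cells without overlap on either side. The log2 fold change from P0 was -4.27 at P1 (SE 0.33, 95% interval -5.02 to -3.52, limma adjusted p = 0.00029), which is 19.3-fold, and -4.63 at P2 (SE 0.33, adjusted p = 0.00014), which is 24.8-fold. At P3 it was -1.40 (SE 0.33, adjusted p = 0.14) and did not pass the test, and at P4 it was -2.23 (SE 0.33, adjusted p = 0.023). The levels at P1 to P4 lay under the filter's limit of 7.33, so the sizes of these falls are uncertain. The fall at P1 and P2 kept its call without the 5 arrays with the bright floor, at -3.94 (adjusted p = 0.048) and -4.21 (adjusted p = 0.046). The call at P4 was lost without those arrays (-2.40, adjusted p = 0.24) and when any 1 of its 4 arrays was left out (-2.44 to -2.02, adjusted p = 0.067 to 0.14).

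Outside the first brain experiment Cldn2 was also below both parental arrays on every array. On bone marrow it was 6.20, 7.28, 6.21 and 7.18 at P1 to P4, and on lung it was 6.31, 7.16, 7.43 and 6.39. Neither tissue showed a steady course over the passages. The mean over the 4 passages differed from P0 by -1.52 on bone marrow (SE 0.29, adjusted p = 0.11) and by -1.41 on lung (SE 0.29, adjusted p = 0.18). On breast, the tissue of origin, the single array stood at 6.04, a difference of -2.20 (SE 0.41, adjusted p = 0.09). None of these 3 differences passed the test after adjustment, although the unadjusted p of each was under 0.05 (0.00052, 0.00084 and 0.00044). In order of level, the 2 early brain passages stood at the bottom, with a gap of 2.04 up to the next group, brain P4. This was 1 of 15 gaps between neighbouring groups and alone exceeded the largest difference within a pair, 0.85; among the other 14 groups, from 6.01 to 8.23, no neighbours in the order differed beyond that spread.

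The second brain experiment did not show the fall at the same passage numbers. From a fit over many genes, the paper placed its P1 between P2 and P3 of the first course. Its P2 was placed between P3 and P4, which the paper read as faster adaptation. In the first experiment Cldn2 had a mean of 3.60 at P2, 6.84 at P3 and 6.01 at P4. Whether the second line passed through an earlier fall was not tested. Its Cldn2 levels were 7.89 at P1 and 7.34 at P2, both under the lower parental array at 8.02. The mean differed from P0 by -0.62 (SE 0.33, 95% interval -1.37 to 0.13, limma adjusted p = 0.50). The difference between the experiments was itself tested: over P1 and P2 the first stood at 3.78 and the second at 7.62, a difference of -3.83 (SE 0.29, adjusted p = 0.00014). With both experiments in 1 group and the experiment as a random block, the change from P0 was -2.70 at P1 (adjusted p = 0.92) and -3.13 at P2 (adjusted p = 0.82). That setting called 0 of 7300 genes at either passage, so its p-values tell nothing particular to Cldn2. The early fall of Cldn2 is a measurement of 1 adapted line, made in 2 cultures at each of 2 passages.

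Cldn1, a sealing claudin without which the skin of mice loses its water barrier (probe set 10438769, chromosome 16), was high at brain P1 and P2. The parental arrays disagreed on it, with 6.82 and 9.07. Only 15 of the 7300 genes (0.205%) differed as much between these 2 arrays, where the median difference was 0.20. At brain P1 the level was 10.06 and 10.13 and at P2 it was 9.93 and 10.27, above every other array of the series. It was 8.14 and 8.52 at P3 and 8.67 and 8.63 at P4, within the range of the parental arrays. The change from P0 was 2.15 at P1 (SE 0.57, 4.45-fold, adjusted p = 0.068), which did not pass, and 2.16 at P2 (SE 0.57, 4.47-fold, adjusted p = 0.043), which did. Its size depended on the parental array used. Against the second alone the changes were 1.03 (adjusted p = 0.094) and 1.04 (adjusted p = 0.07), and against the first alone they were 3.28 (adjusted p = 0.0014) and 3.29 (adjusted p = 0.0012). The call at P2 was also lost without the first brain P2 array (2.33) and without the second (1.99). Without the 5 arrays with the bright floor the change was 1.99 and was not called, with the parental pair as the only measure of spread.

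On the other tissues Cldn1 spread widely between single arrays. It was 9.34, 7.99, 7.86 and 7.63 on bone marrow at P1 to P4, and 9.22, 7.96, 8.69 and 9.58 on lung. The breast array had 8.28 and the second brain experiment 7.75 and 9.35. All of these lay below the 4 early brain arrays, and the arrays of bone marrow P1, lung P1, lung P4 and second-experiment P2 lay above both parental arrays. The mean differences from P0 were 0.26 on bone marrow (SE 0.49, adjusted p = 0.96), 0.92 on lung (SE 0.49, adjusted p = 0.94), 0.34 on breast (SE 0.70, adjusted p = 1) and 0.61 in the second brain experiment (SE 0.57, adjusted p = 0.73). The lung difference turned from 2.05 (adjusted p = 0.025) against the first parental array to -0.20 (adjusted p = 1) against the second. The difference at brain P4, 0.71 (SE 0.57, adjusted p = 0.58), likewise went from 1.84 (adjusted p = 0.038) to -0.41 (adjusted p = 0.50). Because the parental pair differed by 2.25, none of the 15 gaps in the order of the group means exceeded the spread within pairs.

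Cldn3, a sealing claudin of glandular epithelium and a receptor for an enterotoxin of Clostridium perfringens (probe set 10526241, chromosome 5), was measured tightly, with at most 0.21 between the arrays of a pair. It was 9.89 and 9.81 in the parental cells, 10.46 and 10.44 at brain P1 and 10.67 and 10.46 at brain P2. These 4 arrays were the highest of the 21. At P3 both arrays lay below the parental pair, to 9.34 and 9.35, and at P4 they stood at 10.03 and 9.91. The change from P0 was 0.60 at P1 (SE 0.16, 1.52-fold, adjusted p = 0.072), 0.72 at P2 (SE 0.16, 1.64-fold, adjusted p = 0.026), -0.50 at P3 (SE 0.16, adjusted p = 0.26) and 0.12 at P4 (SE 0.16, adjusted p = 0.74). Only the change at P2 passed the test. That call was lost when any 1 of its 4 arrays was left out (0.61 to 0.82, adjusted p = 0.065 to 0.14) and without the 5 arrays with the bright floor (0.82, adjusted p = 0.17). On bone marrow Cldn3 was 9.65, 9.49, 9.20 and 9.56 at P1 to P4, each below the parental arrays, with a mean difference of -0.37 (SE 0.14, adjusted p = 0.55). On lung it was 9.43, 9.96, 9.74 and 10.25, with a mean difference of 0.00 (SE 0.14, adjusted p = 1). The breast array had 9.58, and the second brain experiment had 10.11 and 9.71.

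**Figure D1:**
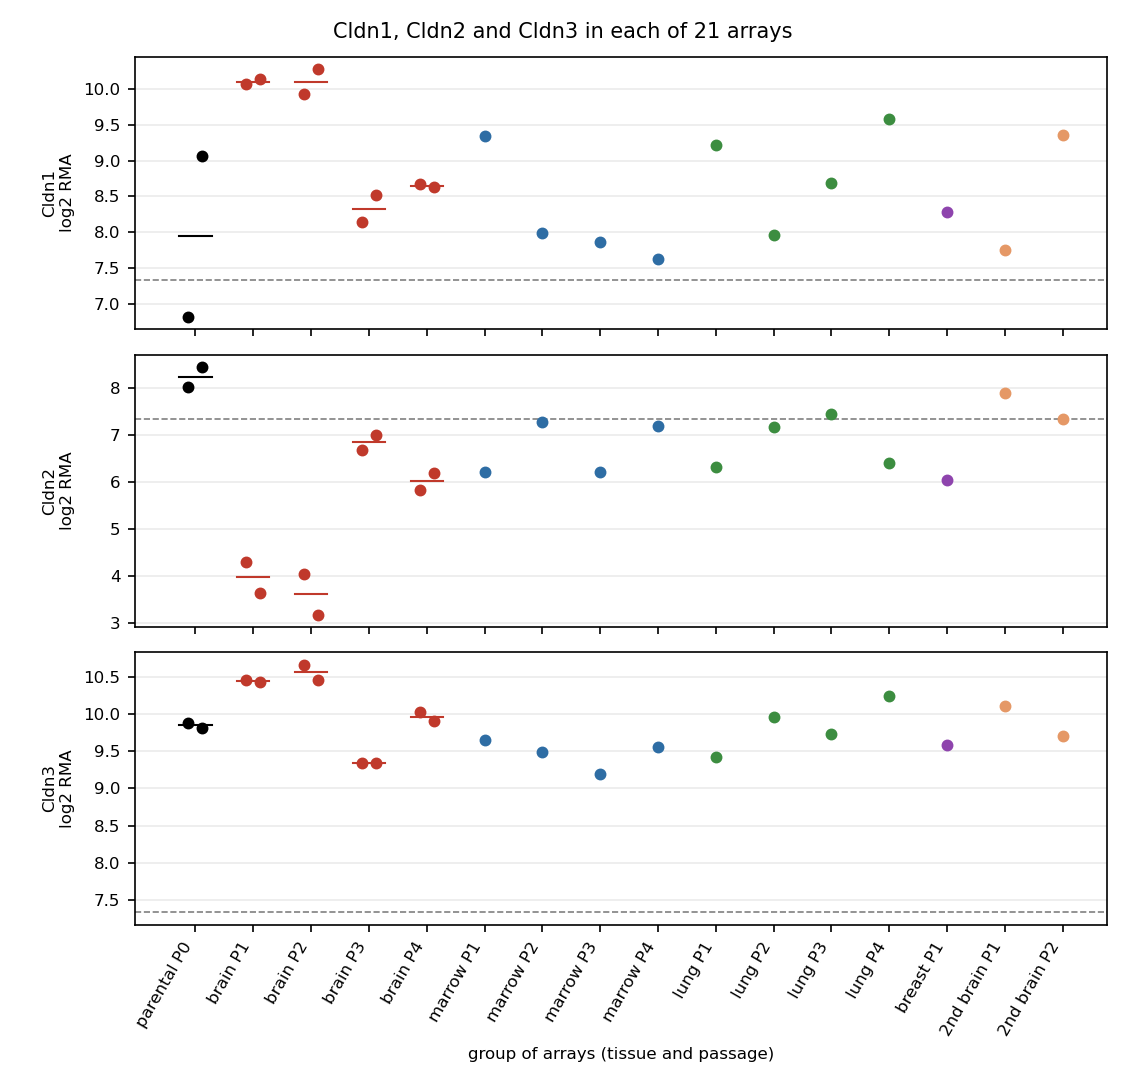
Log2 RMA levels of Cldn1, Cldn2 and Cldn3 (3 panels, vertical axes) in each of 21 arrays, placed by tissue and passage. Points are arrays, short lines are means of groups with 2 arrays, and the dashed line is the filter's limit of 7.33 on the largest group mean. Brain P1 and P2 hold the 4 highest arrays of Cldn1 and Cldn3 and the 4 lowest of Cldn2, and the 2 parental arrays of Cldn1 stand 2.25 apart.

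Cldn4, the neighbour of Cldn3 and like it an enterotoxin receptor (probe set 10534395, chromosome 5), passed the test in none of the 11 comparisons. RefSeq places 0 protein-coding gene starts between the pair. Its level was 10.51 and 10.53 in the parental cells, 10.42 and 10.10 at brain P1, 10.75 and 10.01 at P2, 9.89 and 10.44 at P3 and 11.02 and 10.64 at P4. The brain passages lay on both sides of the parental pair. The changes from P0 ran from -0.36 at P3 (SE 0.29, 95% interval -1.02 to 0.30) to 0.31 at P4 (SE 0.29, 95% interval -0.35 to 0.96). It ran from 9.71 to 10.12 on bone marrow, and was 9.92, 10.38, 10.11 and 10.87 on lung, 10.47 on breast, and 11.05 and 10.28 in the second brain experiment. The 4 bone marrow arrays all lay below the parental pair, with a mean difference of -0.54 (SE 0.25, 95% interval -1.11 to 0.03, adjusted p = 0.68).

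Cldn7, a claudin of simple epithelia that binds the adhesion molecule Epcam (probe set 10377673, chromosome 11), moved little. The parental arrays had 9.94 and 10.01, brain P1 10.14 and 9.93, P2 10.62 and 10.17, P3 9.41 and 9.51, and P4 10.03 and 9.82. Both P2 arrays lay above the parental pair and both P3 arrays below it. The changes were 0.42 at P2 (SE 0.20, adjusted p = 0.22) and -0.51 at P3 (SE 0.20, adjusted p = 0.35), and neither passed. On bone marrow the level was 9.79 to 10.07, on lung 9.77 to 10.14, on breast 9.94, and in the second brain experiment 9.66 and 9.53. Mean differences on bone marrow and lung were -0.09 (SE 0.17, 95% interval -0.48 to 0.30) and -0.06 (SE 0.17, 95% interval -0.45 to 0.33).

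Cldn9, a close relative of Cldn6 known from tight junctions of the inner ear (probe set 10448312, chromosome 17), lay under the limit of 7.33 in every group but bone marrow P4. It was 5.09 and 4.92 in the parental cells, 4.36 and 5.24 at brain P1, 4.61 and 5.29 at P2, 6.63 and 7.08 at P3, and 5.44 and 4.69 at P4. On bone marrow it was 5.65 at P1, 6.55 at P2, 7.15 at P3 and 8.31 at P4, higher at each passage than at the one before. Lung had 4.80, 5.05, 4.79 and 5.35, breast 5.79, and the second brain experiment 4.99 and 5.14. All 4 bone marrow arrays and both brain P3 arrays lay above the parental pair, and those of lung overlapped it. The mean difference on bone marrow was 1.91 (SE 0.32, 3.75-fold, 95% interval 1.18 to 2.63) and missed the threshold (adjusted p = 0.052). It passed without the P1 array (2.33, adjusted p = 0.021), and it was 1.44 (adjusted p = 0.30) without the P4 array, through which alone Cldn9 passed the filter. At brain P3 the change was 1.85 (SE 0.37, 3.60-fold, adjusted p = 0.082). With 15 of 16 group means under 7.33, its fold changes are uncertain. The gap of 1.16 between bone marrow P4 and P3 was the one gap in its order larger than the largest difference within a pair, 0.87.

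Cldn12, an unusual claudin without the tail motif by which most others bind zonula occludens proteins (probe set 10527965, chromosome 5), passed the test in no comparison. It was 8.02 and 8.39 in the parental cells. Brain arrays ran from 7.60 to 9.16, with up to 0.93 between the 2 arrays of a passage, bone marrow from 8.11 to 8.78 and lung from 7.84 to 8.43. Breast had 8.66 and the second brain experiment 9.14 and 8.09. Every brain pair but that of P1 was wider than the parental pair, and the differences from P0 in the 8 comparisons with it ran from -0.26 to 0.49 (SE 0.33 to 0.47). Single arrays reached further from the parental mean, up to 0.93 for P1 of the second brain experiment. The 95% interval at brain P2 ran from -0.37 to 1.36.

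The 3 members that did not pass the filter were dim on every array. Cldn6, a claudin of embryonic epithelium (probe set 10442327), was 3.90 at the lowest, 5.06 at the median and 5.49 at the highest array. Cldn8, a claudin of the distal kidney tubule (probe set 10440647), was 3.20, 3.76 and 4.87. Cldn23 (probe set 10578203) was 4.94, 5.32 and 5.88. None reached 7.33 in any group, so no change could be read for them. Fitted without the filter, their changes at brain P1 and P2 were between 0.00 and 0.87, with adjusted p of 0.52 to 1. Cldn6 and Cldn9 lie next to each other on chromosome 17 and are close in sequence, and whether their probe sets share signal was not tested.

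**Figure D2:**
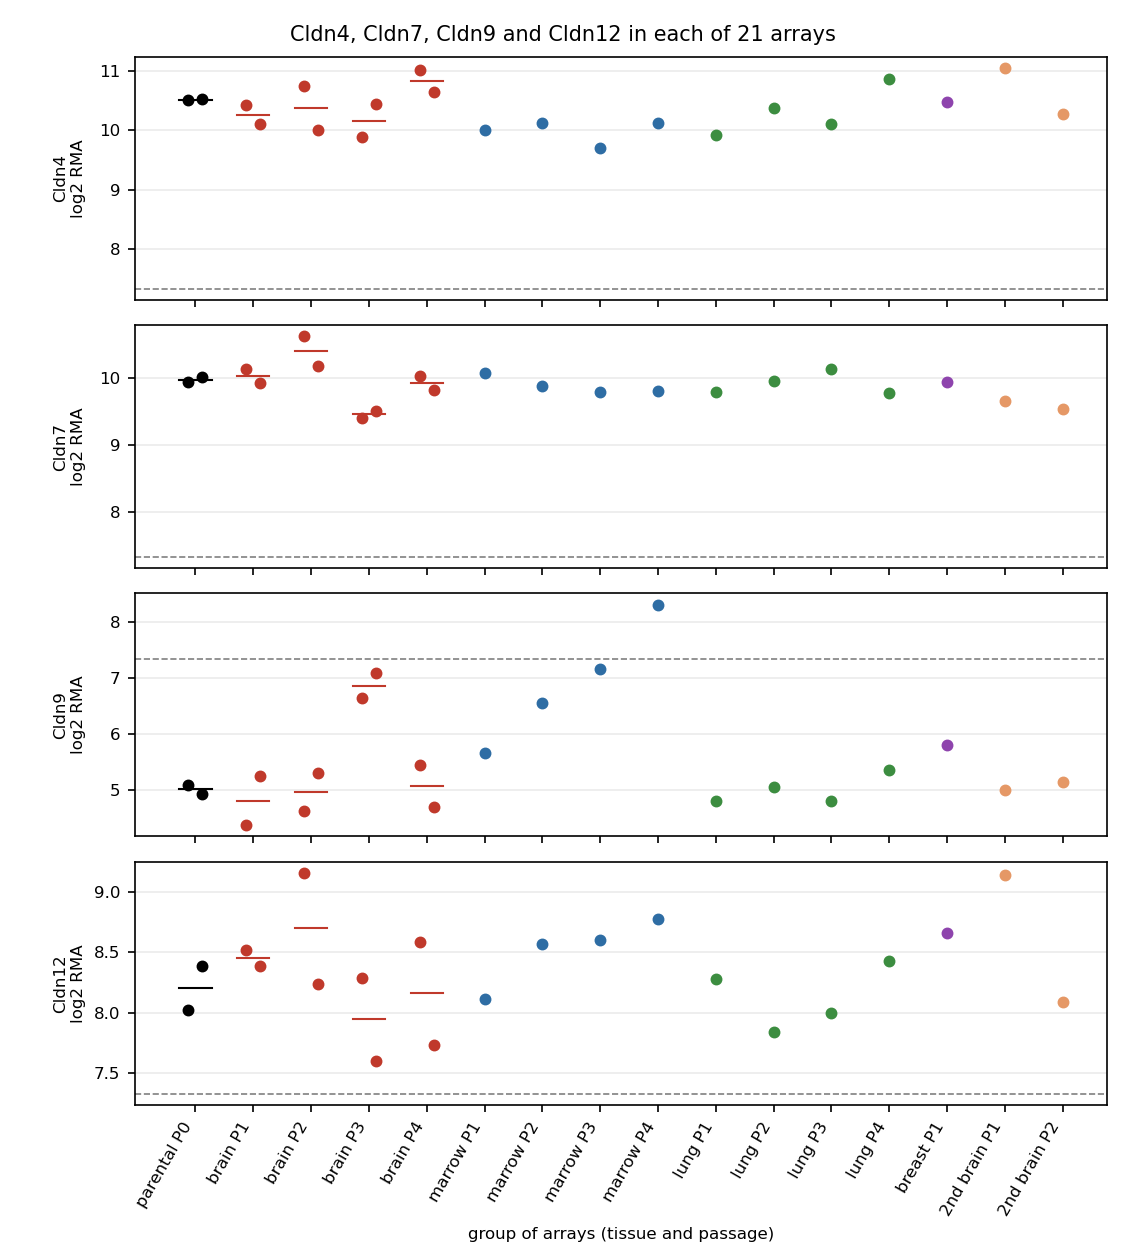
Log2 RMA levels of Cldn4, Cldn7, Cldn9 and Cldn12 (4 panels, vertical axes with their own ranges) in each of 21 arrays, placed by tissue and passage. Points are arrays, short lines are means of groups with 2 arrays, and the dashed line is the limit of 7.33. Cldn9 stands above the line in 1 group, bone marrow P4 at 8.31, while Cldn4, Cldn7 and Cldn12 stay above it on all arrays.

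Counted over the family, 1 of 7 members was called at brain P1, Cldn2, where 5.55% of the 7300 genes were called. At brain P2 it was 3 of 7, with Cldn1 and Cldn3 higher and Cldn2 lower, where 13.3% of genes were called. At brain P3 it was 0 of 7 by limma (4 at an unadjusted p under 0.05, those of Cldn2, Cldn3, Cldn7 and Cldn9) against 0.658% of genes (13.6% unadjusted), and at P4 1 of 7, Cldn2, against 1.01%. On bone marrow 0 of 7 passed in limma (3 unadjusted) against 0.37% of genes (8.68% unadjusted), and on lung 0 of 7 (1 unadjusted) against 0.205% (5.21%). On breast it was 0 of 7 (1 unadjusted) against 0.26% (7.41%), and in the second brain experiment 0 of 7 (0 unadjusted) against 0.315% (13.9%). The median change of the 7 members was 0.06 at brain P1 and 0.42 at P2, where that of all genes was -0.02 and -0.05. Whether a lower value came from less RNA in each cell or from fewer cells that express the gene cannot be told apart in bulk RNA.

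**Figure D3:**
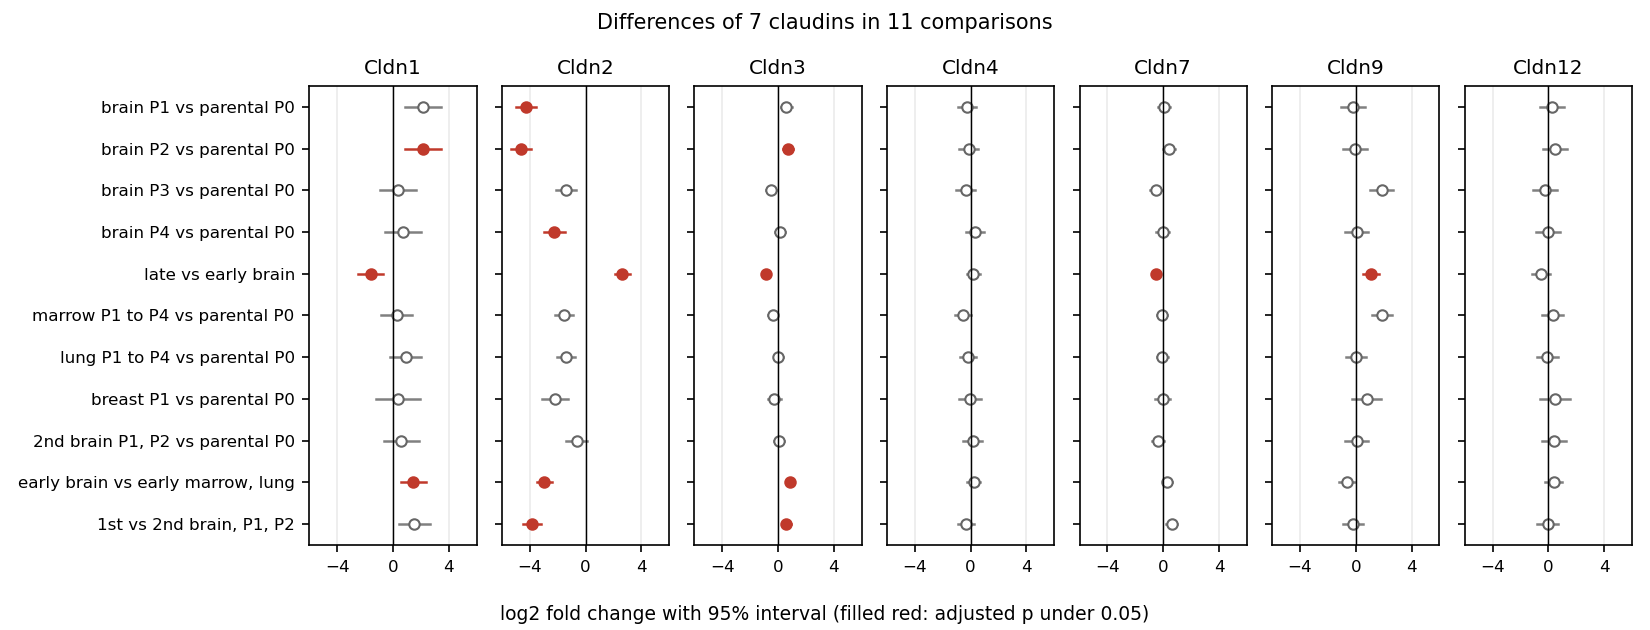
Log2 fold changes of the 7 members that passed the filter (7 panels, horizontal axes) in the 11 comparisons (rows), with 95% intervals from limma. Filled red points passed an adjusted p of 0.05, and open points did not. Cldn2 carries the changes furthest from 0, -4.63 at brain P2 and -4.27 at brain P1, and Cldn4 and Cldn12 have no filled point.

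The late brain passages differed from the early ones in 5 of the 7 members, in a comparison where 27.5% of all genes were called. From P1 and P2 to P3 and P4, Cldn2 rose by 2.64 (SE 0.23, 6.22-fold, adjusted p = 0.00016), its 4 late arrays (5.83 to 6.99) all above the 4 early ones (3.17 to 4.29). All of these levels lay under the filter's limit of 7.33, so the size of the rise is uncertain. Cldn1 fell by 1.61 on the log2 scale (SE 0.40, adjusted p = 0.021) and Cldn3 fell by 0.85 (SE 0.12, adjusted p = 0.0013), both without overlap. Cldn7 fell by 0.52 (SE 0.14, adjusted p = 0.027) and Cldn9 rose by 1.09 (SE 0.26, adjusted p = 0.018), and in these the arrays overlapped. The rise of Cldn9 came from P3, at 6.63 and 7.08, and not from P4, at 5.44 and 4.69. Cldn4 (0.18, SE 0.21, adjusted p = 0.56) and Cldn12 (-0.53, SE 0.27, adjusted p = 0.19) did not pass. Cldn2 passed with each of the 8 arrays left out (2.42 to 2.85). Cldn1 was lost without the first P1 or P3 array or the second P1, P2 or P4 array (-1.62 to -1.51, adjusted p = 0.051 to 0.062), Cldn7 without any array but the second P2 and the first P4 (-0.57 to -0.41, adjusted p = 0.053 to 0.096) and Cldn9 without the first P1 or P2 or the second P3 array (0.87 to 0.98, adjusted p = 0.058 to 0.059). Without the 5 arrays with the bright floor only Cldn2 was called (2.10, adjusted p = 0.046); Cldn3 was then at -0.88 (adjusted p = 0.11). With chromosome medians subtracted, Cldn7 was at -0.34 (adjusted p = 0.10).

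Early brain cells of the first experiment were also set against early cells of bone marrow and lung. The means compared hold no parental array, and 23.6% of genes were called. The spread in the fit still includes the parental pair, which for Cldn1 differed by 2.25. Each tissue is a single adapted line here, so tissue and line cannot be told apart. Over P1 and P2, Cldn1 was higher on brain by 1.47 (SE 0.40, 2.78-fold, adjusted p = 0.032), with 9.93 to 10.27 in the 4 brain arrays and 7.96 to 9.34 in the 4 others. Cldn2 was lower, at -2.95 (SE 0.23, 7.74-fold, adjusted p = 0.00011), with 3.17 to 4.29 against 6.20 to 7.28. All of these Cldn2 levels lay under the filter's limit of 7.33, so the size of the difference is uncertain. Cldn3 was higher by 0.87 (SE 0.12, 1.83-fold, adjusted p = 0.0013), with 10.44 to 10.67 against 9.43 to 9.96. None of the other 4 members passed. The second brain experiment is not part of this comparison. Its P1 and P2 arrays had 7.89 and 7.34 for Cldn2, above the 4 arrays of bone marrow and lung. For Cldn1 they had 7.75 and 9.35, and for Cldn3 10.11 and 9.71. Without the 5 arrays with the bright floor Cldn2 remained called (-2.72, adjusted p = 0.028), and Cldn3 (0.87, adjusted p = 0.082) and Cldn1 (1.57, adjusted p = 0.26) were not. The call of Cldn1 was lost without any 1 of the 4 brain arrays (1.39 to 1.56, adjusted p = 0.063 to 0.091) and without bone marrow P2 (1.26, adjusted p = 0.078) or lung P2 (1.25, adjusted p = 0.082), and it was 1.38 (adjusted p = 0.051) with chromosome medians subtracted.

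Between the first and the second brain experiment at P1 and P2, 2 of 7 members differed, where 13.3% of genes were called. Cldn2 was lower in the first, as given above. Cldn3 was higher in the first by 0.60 (SE 0.14, adjusted p = 0.028), with 10.44 to 10.67 against 10.11 and 9.71. Its call was lost without the first P1 array (adjusted p = 0.081), the first P2 array (adjusted p = 0.072), the second P1 array (adjusted p = 0.079), the P2 array of the second experiment (0.40, adjusted p = 0.24) or the 5 arrays with the bright floor (0.66, adjusted p = 0.17). Cldn7 (0.62, SE 0.17, adjusted p = 0.051) and Cldn1 (1.54, SE 0.49, adjusted p = 0.081) stood higher in the first experiment without overlap and did not pass. The second experiment's Cldn1 arrays were 7.75 and 9.35, and the difference was 0.74 without its P1 array and 2.34 without its P2 array.

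Across the 16 group means, Cldn1 and Cldn2 ran against each other (Pearson r = -0.73, Spearman rho = -0.53), and without brain P1 and P2 r was -0.43 over 14 groups. Cldn3 and Cldn4 ran together (r = 0.62, rho = 0.68), and without brain P1 and P2, where Cldn3 stood high and Cldn4 did not, r was 0.87. Cldn1 and Cldn3 had r = 0.57, which was 0.20 without the same groups, and Cldn3 and Cldn9 had r = -0.59 and -0.58. The points share parental cells, lines and the joint normalization, so these values are descriptions and carry no p. Among all 7300 genes, those most like Cldn2 over the 16 means were Ddost, a subunit of the enzyme that attaches sugar chains to proteins (r = 0.882), Nrp1, a receptor for semaphorins and vascular growth factor (r = 0.881), and Dennd4c, a regulator of Rab proteins (r = 0.880). Nrp1 changed by -2.11 at brain P1 and -3.04 at P2, and Ddost and Dennd4c by -1.02 to -0.70. Most like Cldn1 were Timp2, an inhibitor of matrix metalloproteinases (r = 0.868), Crat, carnitine acetyltransferase (r = 0.865), and Uap1l1 (r = 0.849).

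**Figure D4:**
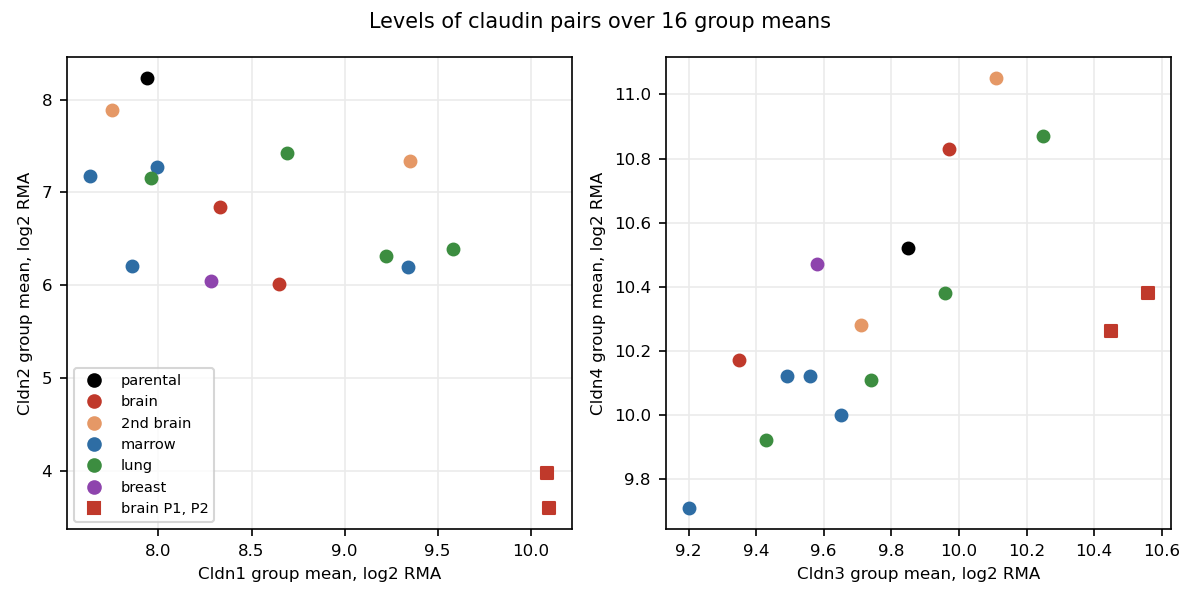
Group means of Cldn2 against Cldn1 (left) and of Cldn4 against Cldn3 (right), both axes in log2 RMA units, one point for each of 16 groups, coloured by tissue, with squares for brain P1 and P2. On the left the squares lie alone at the lower right, near 10.1 for Cldn1 and at 3.60 and 3.97 for Cldn2. On the right they lie to the right of the other 14 groups, at 10.45 and 10.56 for Cldn3.

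The proteins that work beside claudins are given from lists of other junction genes. Of 12 other membrane proteins of tight junctions 7 passed the filter, and 0 were called by limma at brain P1 or P2, where 5.55% and 13.3% of all genes were called. Occludin (Ocln) changed by 0.27 at P1 (SE 0.24, adjusted p = 0.60) and 0.57 at P2 (SE 0.24, adjusted p = 0.16), and F11r, the junctional adhesion molecule A, by -0.16 and 0.15 (SE 0.32, adjusted p = 0.85 and 0.83). Jam2, a further junctional adhesion molecule, did not pass the filter: it was 4.29 and 4.25 in the parental cells, 6.96 and 6.21 at brain P1, 4.97 and 4.91 at P2, and between 3.90 and 4.60 on every other array. Its brain P1 arrays were the highest of the 21 and still lay under 7.33. Of 9 adhesion partners that passed, among them Epcam and the cadherin Cdh1, 0 were called at P1 or P2, against the same shares of all genes, and Epcam changed by -0.19 and 0.05 (SE 0.18, adjusted p = 0.63 and 0.89).

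Of 17 scaffold and polarity proteins that passed, 0 were called at P1, against 5.55% of all genes, and 1 rose and 2 fell at P2, against 13.3%. Cgnl1, a cingulin relative that links the junction to the cytoskeleton, rose by 0.67 (SE 0.18, adjusted p = 0.048). Prkcz, an atypical protein kinase C of the polarity complex, fell by 0.89 on the log2 scale (SE 0.23, adjusted p = 0.042), and Mpdz, a scaffold with many PDZ domains, fell by 0.95 (SE 0.26, adjusted p = 0.05 after rounding, under the threshold). Of 13 transcription factors of epithelial and mesenchymal state, 0 were called at P1, and 1 rose and 3 fell at P2, against the same shares. Ehf, an Ets factor of epithelium, rose by 2.24 (SE 0.41, adjusted p = 0.011). Grhl3, a grainyhead factor, fell by 1.14 (SE 0.18, adjusted p = 0.0074), and Vdr, the vitamin D receptor, of which Cldn2 is a known target in the gut, fell by 1.94 (SE 0.26, adjusted p = 0.0037). Median changes at P2 were 0.22 for the membrane proteins, 0.19 for the scaffolds, 0.08 for the adhesion partners and 0.09 for the factors, where that of all genes was -0.05.

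From early to late brain passages more of these genes were called, where 27.5% of all genes were. Of the 7 membrane proteins 3 fell and 0 rose, of the 17 scaffolds 5 fell and 0 rose, of the 9 adhesion partners 2 fell and 0 rose, and of the 13 factors 5 rose and 3 fell. The 3 membrane proteins were Ocln (-0.91, SE 0.17, adjusted p = 0.0056), Marveld3 (-1.01, SE 0.16, adjusted p = 0.0031) and Ildr1 (-0.74, SE 0.15, adjusted p = 0.0086), which are named here after their values were seen. Of the factors named at P2, Vdr rose by 1.53 in the same comparison (SE 0.19, limma adjusted p = 0.00081) and Grhl3 by 0.98 (SE 0.13, adjusted p = 0.0012). Ehf fell by 1.47 on the log2 scale (SE 0.29, adjusted p = 0.0074). The part of any of these factors in the claudin changes was not tested. Median changes were -0.52 for the claudins, -0.48 for the membrane proteins, -0.31 for the scaffolds, -0.34 for the adhesion partners, -0.11 for the factors and -0.10 for all genes. Against P0, 0 genes of these 4 lists were called by limma on breast, lung or bone marrow or in the second brain experiment. The shares of all genes called there were 0.26%, 0.205%, 0.37% and 0.315%.

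**Figure D5:**
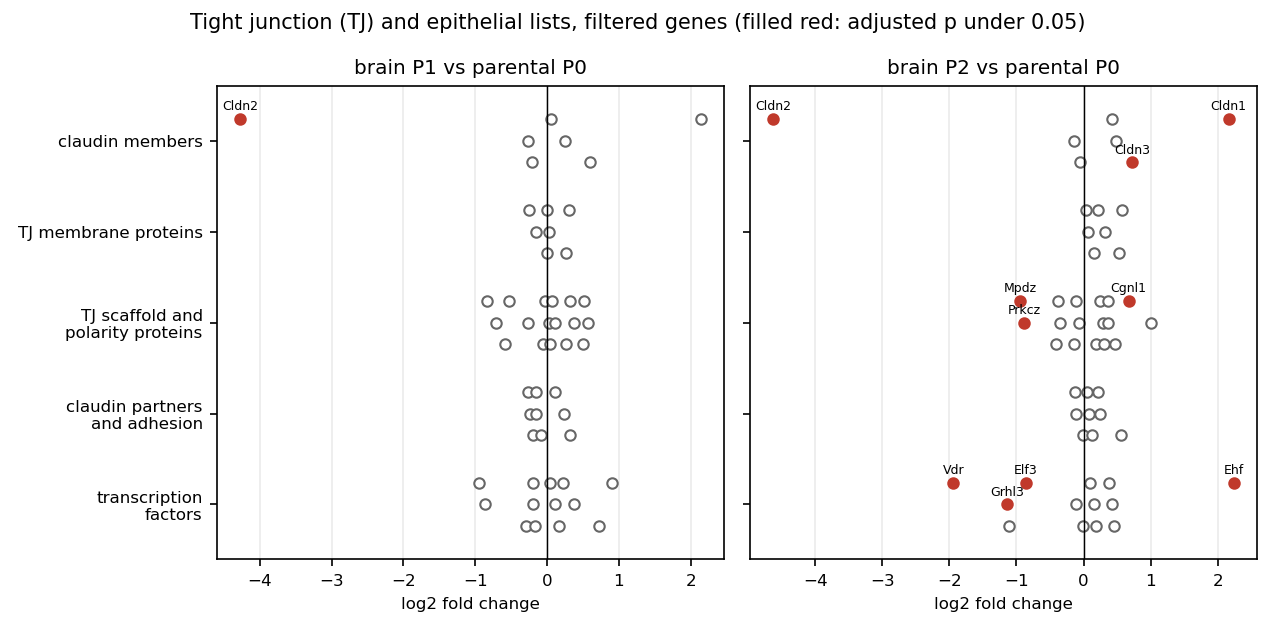
Log2 fold changes from parental cells at brain P1 (left) and P2 (right) for the genes of 5 lists that passed the filter, one point each, spread vertically for legibility. Filled red points with names passed an adjusted p of 0.05. At P1 Cldn2 is the one filled point, and at P2 the filled points are Cldn1, Cldn2 and Cldn3, 3 scaffold or polarity genes and 4 transcription factors.

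Some markers also changed at brain P1 or P2. Cd68 was 6.01 in the parental cells and rose by 1.94 at P1 (SE 0.34, limma adjusted p = 0.017) and 2.24 at P2 (SE 0.34, adjusted p = 0.006). At P4 it stood 1.71 above P0 and was not called. Its parental level lay under the filter's limit of 7.33, so Cd68 passed the filter only through groups where it stood higher. These tests are therefore not independent of the filter. Over the 8 blood cell markers the mean level was 4.25 in the parental cells, 4.48 at P1 and 4.56 at P2, within a range of 4.08 to 4.70 over the groups, and the common leukocyte antigen Ptprc stayed between 3.52 and 4.18. The epithelial markers had a mean level of 9.49, 9.36 and 9.27 in the same 3 groups. Of them Erbb2 fell by 1.19 on the log2 scale at P1 (SE 0.21, adjusted p = 0.015) and by 0.76 at P2 (SE 0.21, adjusted p = 0.048), and Krt14, a basal keratin, fell by 1.60 at P2 (SE 0.32, adjusted p = 0.016). The change of Krt14 at P1 was -0.52 (SE 0.32, limma adjusted p = 0.43), and that of Erbb2 at P3 was -1.24 (SE 0.21, adjusted p = 0.039). The other epithelial markers that passed the filter were called at neither P1 nor P2. Between late and early brain passages Cd68 differed by -0.87 (SE 0.24, adjusted p = 0.031) and Krt14 by 1.42 (SE 0.23, adjusted p = 0.0032). Between early brain and early bone marrow and lung the differences were 1.86 (SE 0.24, adjusted p = 0.0012) and -1.49 (SE 0.23, adjusted p = 0.0026), and between the brain experiments 1.40 (SE 0.30, adjusted p = 0.019) and -1.68 (SE 0.28, adjusted p = 0.007). The part of these markers in the claudin changes was not tested. The median change of the genes on chromosome X, where Cldn2 lies, was 0.12 at P1 and -0.02 at P2, and the changes of Cldn2 with chromosome medians subtracted were -4.39 and -4.60.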

How the data were processed

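RNA of cultured N202 cells was hybridised to 21 Affymetrix Mouse Gene 1.0 ST arrays in 16 groups, taken from the labels. The authors processed the intensities by RMA in Expression Console, with quantile normalization between arrays, and deposited 1 log2 value per probe set, used here without further scaling. The genome build of their annotation is not given in the sources used here. The 10522 probe sets with the largest group means were kept, the number kept in the study. Group means were fitted to all arrays with limma 3.58.1 in R 4.3.3 (5 residual and 3.9 prior degrees of freedom) and Benjamini-Hochberg adjustment, and the script was tested on simulated data. The members, lists and comparisons were chosen with earlier results of these data known. Named were all members, up to 3 genes per junction list with the lowest p among those called at brain P1 or P2, the 3 genes most like Cldn2 and Cldn1, markers, and Jam2. Some genes of the lists are not reported here. Alternatives were a filter to 7000 probe sets or none, scaling by array medians or cyclic loess, trend with robust estimation, the mean over probe sets, a 2-fold limit, a replicate block, both brain experiments in 1 group, passages as replicates and leaving out each array. Subtracting chromosome medians, and leaving out the 5 arrays with the brightest floor, were chosen after seeing the data. Promoters were searched in Python 3.11.15 and figures drawn with matplotlib 3.10.9.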

Additional observations from a re-analysis of the deposited data

Results flagged for a closer look

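At P1 and P2, the first brain line was set against the bone marrow and lung lines together. The difference passed the test for 3 members, where 23.6% of genes were called. It was 1.47 for Cldn1 (adjusted p = 0.032), -2.95 for Cldn2 (adjusted p = 0.00011) and 0.87 for Cldn3 (adjusted p = 0.0013), all from limma with 4 arrays on each side. On all of these arrays Cldn2 lay under the filter's limit of 7.33, so the size of its difference is uncertain. Each tissue is a single adapted line there, so tissue and line cannot be told apart. The difference between the first and the second brain experiment passed for 2 members at the same passages, where 13.3% of genes were called. It was -3.83 for Cldn2 (limma adjusted p = 0.00014) and 0.60 for Cldn3 (adjusted p = 0.028), with 4 arrays against 2. No group of the series has 4 or more arrays, so no single array could be tested for standing apart from its group.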

How the results depend on the processing

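Over 11 comparisons, 38 recomputed counts of called members moved by more than 1.5 times and 133 did not, and 2 fold changes of single members, both of Cldn1, turned sign. The 133 include counts that stayed at 0 in the comparisons where the main count was 0. The main counts were 1 at brain P1, 3 at P2, 1 at P4, 5 for late against early brain, 3 for early brain against bone marrow and lung and 2 between the brain experiments. Without the filter they were 1 at P2, 0 at P4, 2 late against early and 1 between experiments. Of 19937 genes, 154, 4, 832 and 269 were then called. With 7000 probe sets, which leaves out Cldn2 and Cldn9, they were 0 at P1, 0 at P4 and 3 late against early. Of 4746 genes, 381, 71 and 1508 were then called. At P1 there were 2 calls with equal array medians, with trend and robust estimation and with the replicate block. Those settings called 462, 432 and 567 of 7300 genes. With both brain experiments in 1 group (block correlation 0.21) there were 0 at P1 and 0 at P2, where 0 of 7300 genes were called. The 2-fold limit gave 3 late against early and 1 between experiments, where 548 and 472 of 7300 genes were called. Without the 5 arrays with the brightest floor, a setting chosen after seeing the data, the parental pair alone gave the spread. The counts fell there at P2, at P4, late against early, against bone marrow and lung and between experiments. This cannot be told from a loss of precision. Leaving out 1 array gave 1 to 2 calls at P1, 1 to 2 at P2, 0 to 1 at P4, 2 to 5 late against early, 0 to 1 on bone marrow, 0 to 1 on lung, 2 to 3 against bone marrow and lung and 1 to 3 between experiments. Cldn1 changed to -0.41 at brain P4 and to -0.20 on lung without the first parental array, and to 1.84 and 2.05 without the second. The labels name no batch or day that arrays of 1 number share. The second-minus-first differences of the 5 pairs correlated at 0.01 to 0.36, all above 0 but 3 of 10 not over 0.1, so the arrays were not taken as paired, although the second arrays of the brain passages share the bright floor. Under the replicate block Cldn1 at P1 was called (2.15, adjusted p = 0.043), as was Cldn7 between experiments (0.69, adjusted p = 0.039), and Cldn1 against bone marrow and lung was not (1.17, adjusted p = 0.067). Apart from the setting that joins both brain experiments, the fall of Cldn2 at P1 and P2 passed in every alternative in which it was tested.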
